A study of Homo sapiens with 12 samples.

Results

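The clustered histone genes were the symbols beginning HIST1H, HIST2H, HIST3H or HIST4H that had a value above 0 in at least 2 of 12 libraries, which gave 59 of the 27106 genes in the table. They comprised 6 H1, 14 H2A, 18 H2B, 11 H3 and 10 H4 genes, of which 48 carried the HIST1 prefix, 7 HIST2, 3 HIST3 and 1 HIST4. Another 11 symbols with these prefixes were listed at 0 in every library and 3 were above 0 in 1 library only. The values did not enter the choice beyond that detection rule.

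Messenger RNA was sequenced from IMR90 hTERT, a lung fibroblast line kept growing by added telomerase and carrying a Ras protein fused to a hormone-binding domain (RasERT2) that tamoxifen switches on. Doxycycline at 0.5 ug/ml induced a hairpin in all groups, either the scramble control shScr or shIL1R against the interleukin-1 receptor, and cells then received 200 nM tamoxifen or ethanol. The sample annotation used here lists 200 nM tamoxifen for every library, day 0 included, and does not mark which received ethanol. The 6 groups of 2 libraries were shScr and shIL1R at day 0 (growing cells), day 4 (beginning to senesce) and day 10 (senescent cells) of Ras induction. The series used 2 hairpins against the receptor, and the labels do not say whether libraries 1 and 2 of a group carry different hairpins or are separate cultures, so the tests reflect only how far these libraries spread, which may be technical.

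Histones package DNA into nucleosomes: H2A, H2B, H3 and H4 form the core, and H1 binds the linker DNA. Most are encoded in clusters of intronless genes on chromosomes 6 and 1 that are transcribed in S phase, when DNA is copied. Their messages usually lack a poly(A) tail and end just after a short stem-loop, which the stem-loop binding protein SLBP holds. Several of these genes can also give longer, polyadenylated messages, chiefly in cells that have stopped dividing. Poly(A)-selected libraries, as used here, enrich for messages with a tail and do not measure the tailless form quantitatively.

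Of the 59 members, 25 have the stem-loop inside a transcript of the GENCODE v29 annotation (GRCh38), in 5 forms of 16 letters. The letters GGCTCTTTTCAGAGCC occurred in 13 of them, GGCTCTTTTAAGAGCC in 5, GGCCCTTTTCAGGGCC in 4, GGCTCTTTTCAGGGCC in 2 and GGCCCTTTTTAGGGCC in 1. The members on which the later values turn follow with 5 bases on each side, the stem-loop in capitals, because they carry this element whether their RNA rose or fell.
HIST1H2AC: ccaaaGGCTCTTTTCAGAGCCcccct
HIST1H2BC: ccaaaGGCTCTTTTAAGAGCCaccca
HIST2H2BE: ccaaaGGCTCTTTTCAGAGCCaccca
HIST1H4H: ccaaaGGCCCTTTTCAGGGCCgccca
HIST1H2BH: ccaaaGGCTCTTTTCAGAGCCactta
HIST1H2AG: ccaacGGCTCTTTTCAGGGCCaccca
The first 4 of these genes rose during Ras induction and HIST1H2BH fell, while HIST1H2AG did not pass the test at day 10. HIST2H2BE and HIST1H2BH share the same 16 letters.

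Values were normalized counts, that is, reads per gene divided by a library factor. Each library held between 24140324 and 30127727 reads, 1 read was worth 0.834 to 1.2 normalized counts, and a count of 0 allows up to 3 reads, or 2.5 to 3.6 normalized counts, for counting error only. The hairpin target IL1R1 lay between 1240 and 1580 in the 6 shScr libraries and between 86.4 and 731 in the 6 shIL1R libraries. All 10 fibroblast markers were above 0 in every group, with summed levels of 317635 to 495041, whereas the 6 epithelial markers summed to 2.26 to 10.8 with KRT5 and KRT14 at 0 in all libraries. Of the other marker lists, the endothelial sum was 1025 to 3267 with CDH5 at 0, the leukocyte sum 2846 to 8934 with CD3E at 0, and the smooth muscle and neural sum 4982 to 7748 with none of 6 at 0 throughout. Some markers moved over the same days as the histone genes. At day 10 against day 0, 6 of 10 fibroblast markers fell in each genotype, while 1 rose in shScr (FAP) and 2 in shIL1R. Over all genes tested, 32.5% rose and 31.3% fell in shScr, and 30% and 30.3% in shIL1R. Of 4 tested endothelial markers 2 rose and 1 fell in each genotype, with VWF going from 11 and 2.5 to 63.7 and 50.6 and KDR from 2.76 and 1.67 to 96.8 and 51.6 in shScr. CD68, the only tested leukocyte marker, rose from 2860 and 3147 to 8920 and 7306 in shScr and from 2839 and 2878 to 8475 and 5782 in shIL1R. The part of these markers in the histone values was not tested. RNA45S5, the ribosomal RNA precursor that has no poly(A) tail, took 1.34 to 1.47% of reads at day 0 and 2.51 to 3% at day 10, and 1.79 and 3.41% in the shScr day 4 libraries. The second shScr day 4 library also stood apart in RMRP and RPPH1, further RNAs without a tail, at 199.7 and 57.7 normalized counts against 9.51 and 0.951 in the first. Among 11 of the 20 listed tailless RNAs that were in the table, 4 could be tested at day 10 against day 0. RNA45S5 rose (1.10 ± 0.24 on the log2 scale in shScr, 1.15 ± 0.24 in shIL1R) and SNORA73B, a small nucleolar RNA, fell (17.5 and 10 to 1.18 and 3.04 normalized counts in shScr, 18.9 and 13.8 to 3.6 and 0 in shIL1R). The part of such RNAs in the histone values was not tested.

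The summed level of the members was higher at day 10 than at day 0 in both genotypes, by a larger factor in the control than in the receptor-depleted cells. Their summed level was 982 and 946 normalized counts in the shScr libraries at day 0, 1486 and 1680.0 on day 4 and then 5130 and 5306 at day 10, means that were 1.64 and 5.41 times the day 0 mean. In shIL1R the sum was 894 and 985 at day 0, 1116 and 1134 on day 4 and then 3696 and 2644 at day 10, or 1.2 and 3.38 times. The groups did not overlap between days in either genotype, and the first shIL1R day 10 library lay well above the second. H2B genes made the largest part of the sum, at 608 ± 22.7 (SD, n = 2) at day 0 and 3538 ± 98.4 at day 10 in shScr, against 587 ± 33.4 and 2025 ± 415.5 in shIL1R. Not every class was above its day 0 level at day 4. The H1 sum went from 134 ± 5.98 to 105 ± 18.4 at day 4 and 568 ± 1.17 at day 10 in shScr, and from 151 ± 12.9 to 104.9 ± 1.96 and 384 ± 158.7 in shIL1R. The H3 sum at day 4 was 0.92 times that of day 0 in shScr and 0.655 times in shIL1R, and the H4 sum 1.42 and 0.91 times. These sums weigh the abundant members, and in bulk libraries a change in the share of cells and a change in RNA per cell cannot be told apart.

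**Figure D1:**
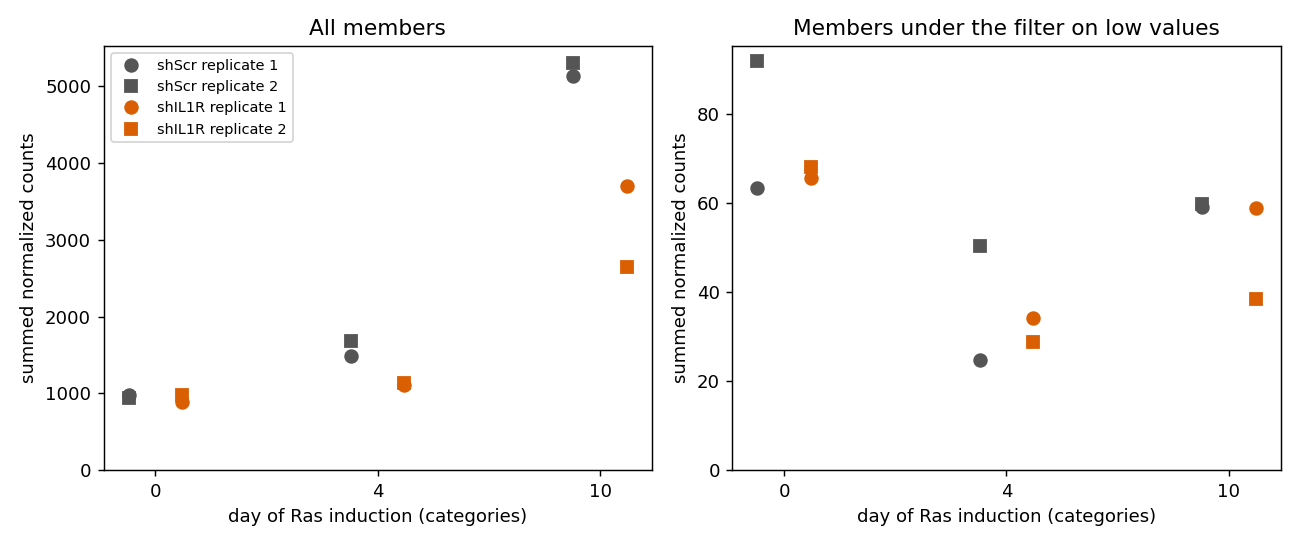
Summed normalized counts of the clustered histone genes (vertical axis, from 0) by day of Ras induction, drawn as categories, with a mark per library for shScr and shIL1R. One panel sums all 59 members and another the 35 that were not tested. All members together rose to 5130 and 5306 in shScr at day 10, with shIL1R at 3696 and 2644, while the untested ones, which the minimum keeps low by choice, stayed below 92 in every library.

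Only 24 members reached 10 normalized counts in at least 2 libraries and entered the fit of limma over 13924 genes (1 of H1, 5 of H2A, 12 of H2B, 4 of H3, 2 of H4). The other 35 did not, so counts below describe the 24 and not the family. Of the 24, 16 reached that minimum on every day, 4 (HIST1H2BF, HIST1H2BN, HIST2H2BF, HIST3H2BB) at day 10 alone and 2 (HIST2H2AC, HIST2H3D) at day 0 alone. HIST1H3H and HIST1H4E reached it at days 4 and 10 but not at day 0. A gene that enters through its high group had to differ, and these few counts support nothing by themselves.

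Between day 0 and day 10 in shScr, 15 of the 24 rose and 2 fell by limma at an adjusted p below 0.05. Those that rose include HIST1H2BN, HIST1H3H and HIST1H4E, which did not reach the minimum at day 0. Those that fell include HIST2H2AC, which reached it at day 0 alone. These calls are counted but support nothing by themselves. Over all genes tested, 32.5% were called higher and 31.3% lower in this comparison. The members' median change was 2.09 on the log2(normalized count + 1) scale, within a range from -2.04 to 4.04, and the median of all genes was 0.01. In shIL1R 14 rose and 1 fell, with a background of 30% higher and 30.3% lower, a member median of 1.51 and a range from -1.88 to 2.67. These comparisons share no library in their means. Both use the same estimate of each gene's spread, taken over all 12 libraries, so their calls are not independent. All changes below are on this scale, which understates the change of genes with few reads.

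The linker histone was represented by HIST1H1C, which encodes H1.2. Its level was 128.6 and 119 normalized counts in shScr at day 0, 88.5 and 111 on day 4, and 558 and 563 at day 10. In shIL1R it was 130.2 and 149 at day 0, 98.7 and 103 on day 4, and 490.4 and 269.8 at day 10. The day 10 libraries were thus far above all earlier ones, while the day 4 libraries lay below those of day 0 in both genotypes. The day 10 change against day 0 was 2.17 ± 0.24 (SE; limma adjusted p = 1.28e-05) in shScr and 1.38 ± 0.24 (adjusted p = 0.00043) in shIL1R. At day 4 the differences of -0.32 ± 0.24 and -0.46 ± 0.24 did not pass the test (limma adjusted p = 0.311 and 0.141). Between day 4 and day 10 it rose by 2.49 ± 0.24 in shScr and 1.84 ± 0.24 in shIL1R.

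Among the H2A genes, whose product pairs with H2B in the nucleosome core, 3 of 5 tested rose at day 10 in each genotype. The share of all genes tested that rose was 32.5% in shScr and 30% in shIL1R. HIST1H2AC measured 70.7 and 56.7 at day 0, 175 and 202 on day 4, and 668 and 663 at day 10 in shScr. It measured 62 and 68, then 136.8 and 109.6, then 441 and 395 in shIL1R. Every day was separated from the next in both genotypes. Its day 10 change was 3.37 ± 0.17 (limma adjusted p = 4.48e-08) in shScr and 2.67 ± 0.17 (adjusted p = 3.33e-07) in shIL1R.

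HIST3H2A, an H2A gene of the small cluster on chromosome 1, rose to a like extent in both genotypes. Its levels were 18.4 and 12.5, 30.4 and 39.8, and 74.3 and 72.9 at days 0, 4 and 10 in shScr, and 14.4 and 16.4, 30.3 and 43.2, and 100.7 and 66.6 in shIL1R. The day 10 changes were 2.21 ± 0.30 and 2.34 ± 0.30. HIST1H2AE stood at 12.9 and 15 at day 0 and at 66.1 and 57.7 at day 10 in shScr (2.07 ± 0.62), and at 3.59 and 10.3 and then 77.9 and 15.8 in shIL1R (2.34 ± 0.62). In shScr its call was lost without the first library of day 0 or of day 10, and in shIL1R without the first library of day 0 or of day 10.

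The remaining tested H2A genes were not called higher at day 10 against day 0 in either genotype. HIST1H2AG was at 18.4 and 12.5 at day 0 and 10.6 and 12.2 at day 10 in shScr, and at 19.8 and 18.1 and then 9.59 and 14.7 in shIL1R, changes of -0.39 ± 0.41 and -0.63 ± 0.41 that did not pass the test. In shIL1R at day 4 it was at 4.88 and 2.21, a change of -2.19 ± 0.41 (limma adjusted p = 0.00174), and from there to day 10 it rose (1.57 ± 0.41, adjusted p = 0.0125). That rise was not called without the second day 4 or the second day 10 library, by DESeq2 or with the compared groups alone. HIST2H2AC fell in shScr from 13.8 and 17.5 to 7.08 and 1.01 (-2.04 ± 0.75, limma adjusted p = 0.0335), and in shIL1R it was at 5.39 and 5.16 and then 7.19 and 1.13. These are counts of a few reads, and the shScr call was lost without either day 0 library or the second day 10 library. Of all stretches of 50 bases in its annotated transcripts, 30.5% also occur in another histone gene, so this gene is uncertain.

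H2B, the partner of H2A, was the class with the most tested genes and the highest levels. In shScr 7 of 12 rose and 1 fell at day 10, and in shIL1R 8 rose and 1 fell. Of all genes tested, 32.5% were higher and 31.3% lower in shScr, and 30% and 30.3% in shIL1R. These H2B counts include HIST1H2BN in shScr and HIST3H2BB in shIL1R, which reached the minimum at day 10 alone. HIST1H2BK had the most normalized counts, with 337 and 358 at day 0, 567 and 609.5 on day 4 and then 1516 and 1733 at day 10 in shScr. In shIL1R it had 291 and 336, 397 and 487, and 1107 and 985. The days did not overlap in either genotype. Its changes at day 10 were 2.22 ± 0.13 (limma adjusted p = 1.33e-07) and 1.74 ± 0.13 (adjusted p = 1.04e-06), although 22.6% of its stretches of 50 bases are shared with other histone genes.

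HIST2H2BE, on chromosome 1 (GRCh38 chr1:149884459-149886652, minus strand), measured 87.3 and 60.1 at day 0, 179 and 201 on day 4, and 741 and 780 at day 10 in shScr. In shIL1R the values were 103 and 85.2, 130.9 and 103.0, and 333 and 226. It rose in both, by 3.37 ± 0.23 (limma adjusted p = 3.67e-07) and 1.54 ± 0.23 (adjusted p = 0.000159), and the shIL1R libraries of day 10 stayed below each shScr library of that day. The means at day 10 were 10.3 times the day 0 mean in shScr and 2.97 times in shIL1R.

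HIST1H2BC (GRCh38 chr6:26114873-26123926, minus strand) went from 19.3 and 25 to 46.6 and 48.3 at day 4 and to 261 and 284 at day 10 in shScr. In shIL1R it was 26.9 and 28.4 at day 0, 22.5 and 21 on day 4, and 149.9 and 89.2 at day 10. The control libraries were above their starting level by day 4 and the receptor-depleted ones below it. The change at day 4 was 1.08 ± 0.26 (limma adjusted p = 0.0072) in shScr and -0.33 ± 0.26 (adjusted p = 0.327) in shIL1R. The difference between these changes did not pass the test.

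HIST1H2BG had the largest day 10 change of the 24 in shScr, 4.04 ± 0.55 (limma adjusted p = 7.17e-05). It rose there from 4.59 and 10.8 through 25.7 and 23.7 to 131 and 136, and in shIL1R moved from 9.88 and 10.3 through 6.84 and 3.32 to 111.5 and 30.5 (2.42 ± 0.55, adjusted p = 0.00288). HIST1H2BD went from 72.6 and 42.6 through 212 and 215 to 683 and 543 in shScr (3.43 ± 0.27), and from 61.1 and 69.7 through 161 and 133 to 496 and 307 in shIL1R (2.56 ± 0.27). Annotated genes overlap HIST1H2BD on the opposite strand (AL353759.1) and on the same strand (LARP1P1). The strand setting of the counting is not given, so reads of these genes cannot be told apart here.

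HIST1H2BH was the H2B gene that fell. It was at 33.1 and 31.7 at day 0, 6.66 and 18.9 on day 4 and then 5.9 and 11.1 at day 10 in shScr, and at 23.3 and 18.9, 9.77 and 9.97, and 7.19 and 3.39 in shIL1R. No day 4 or day 10 library of either genotype reached the day 0 libraries of the same genotype. The day 10 changes were -1.87 ± 0.50 (limma adjusted p = 0.00676) and -1.88 ± 0.50 (adjusted p = 0.00707). None of its stretches of 50 bases occurs in another histone gene. The shScr call was lost without the first day 10 library.

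The H2B genes with few reads were HIST1H2BJ, HIST1H2BN, HIST1H2BF, HIST2H2BF and HIST3H2BB. HIST1H2BJ went from 11.9 and 12.5 to 31.9 and 26.3 in shScr (1.18 ± 0.31) and from 9.88 and 14.6 to 22.8 and 20.3 in shIL1R (0.79 ± 0.31, limma adjusted p = 0.0469). The shIL1R call of HIST1H2BJ was lost with a pseudocount of 0.5, no filter, the replicate block, the compared groups alone, edgeR, DESeq2 and in 10 of the 12 omissions of a library. HIST3H2BB, at 1.84 and 1.67 and then 16.5 and 7.09 in shScr, did not pass the test there (adjusted p = 0.0506), while in shIL1R it passed from 0 in both day 0 libraries to 15.6 and 1.13, a call lost without either day 0 library or the first day 10 library. HIST1H2BN rose in shScr from 4.59 and 1.67 to 11.8 and 10.1 (1.63 ± 0.58), a call lost without the second day 0 library or either day 10 library, and it overlaps HIST1H2AK, HIST1H2BPS2 and HIST1H2AL. HIST2H2BC, a transcribed pseudogene, was at 27.6 and 26.7 and then 40.1 and 38.5 in shScr (0.52 ± 0.29, not passed) and rose from 18 and 18.1 to 27.6 and 44 in shIL1R (0.92 ± 0.29, lost without either day 0 library or the second day 10 library).

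In the H3 class, which carries most of the known tail modifications, HIST1H3D rose in both genotypes. It measured 7.35 and 4.17 at day 0, 11.4 and 18.9 on day 4 and then 82.6 and 63.8 at day 10 in shScr (3.49 ± 0.45, limma adjusted p = 4.41e-05). In shIL1R it measured 7.18 and 10.3, 6.84 and 4.43, and 76.7 and 36.1 (2.48 ± 0.45, adjusted p = 0.000609). The annotated gene AL031777.3 overlaps it on the same strand. HIST1H3H rose in shScr from 7.35 and 9.18 to 20.1 and 30.4 (1.48 ± 0.55, adjusted p = 0.0356), and leaving out any single library of those 4 ended the call. HIST1H3E was at 8.27 and 10 and then 15.3 and 25.3 in shScr (1.04 ± 0.50), and HIST2H3D, of whose stretches of 50 bases 80.4% are shared, at 10.1 and 5.01 and then 9.44 and 6.08. Neither passed the test in either genotype.

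Both tested H4 genes rose in shScr at day 10, where 32.5% of all genes tested were higher. HIST1H4H went from 9.19 and 10 through 15.2 and 22.7 to 80.2 and 139 in shScr (3.33 ± 0.50, limma adjusted p = 0.000149), and from 3.59 and 13.8 through 13.7 and 14.4 to 63.5 and 40.6 in shIL1R (2.65 ± 0.50, adjusted p = 0.000853). HIST1H4E went from 3.67 and 4.17 to 23.6 and 19.2 in shScr (2.18 ± 0.64, adjusted p = 0.0113, lost without the first library of either day). In shIL1R it was at 2.69 and 6.02 and then 19.2 and 9.03, and did not pass (1.48 ± 0.64, adjusted p = 0.0654).

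**Figure D2:**
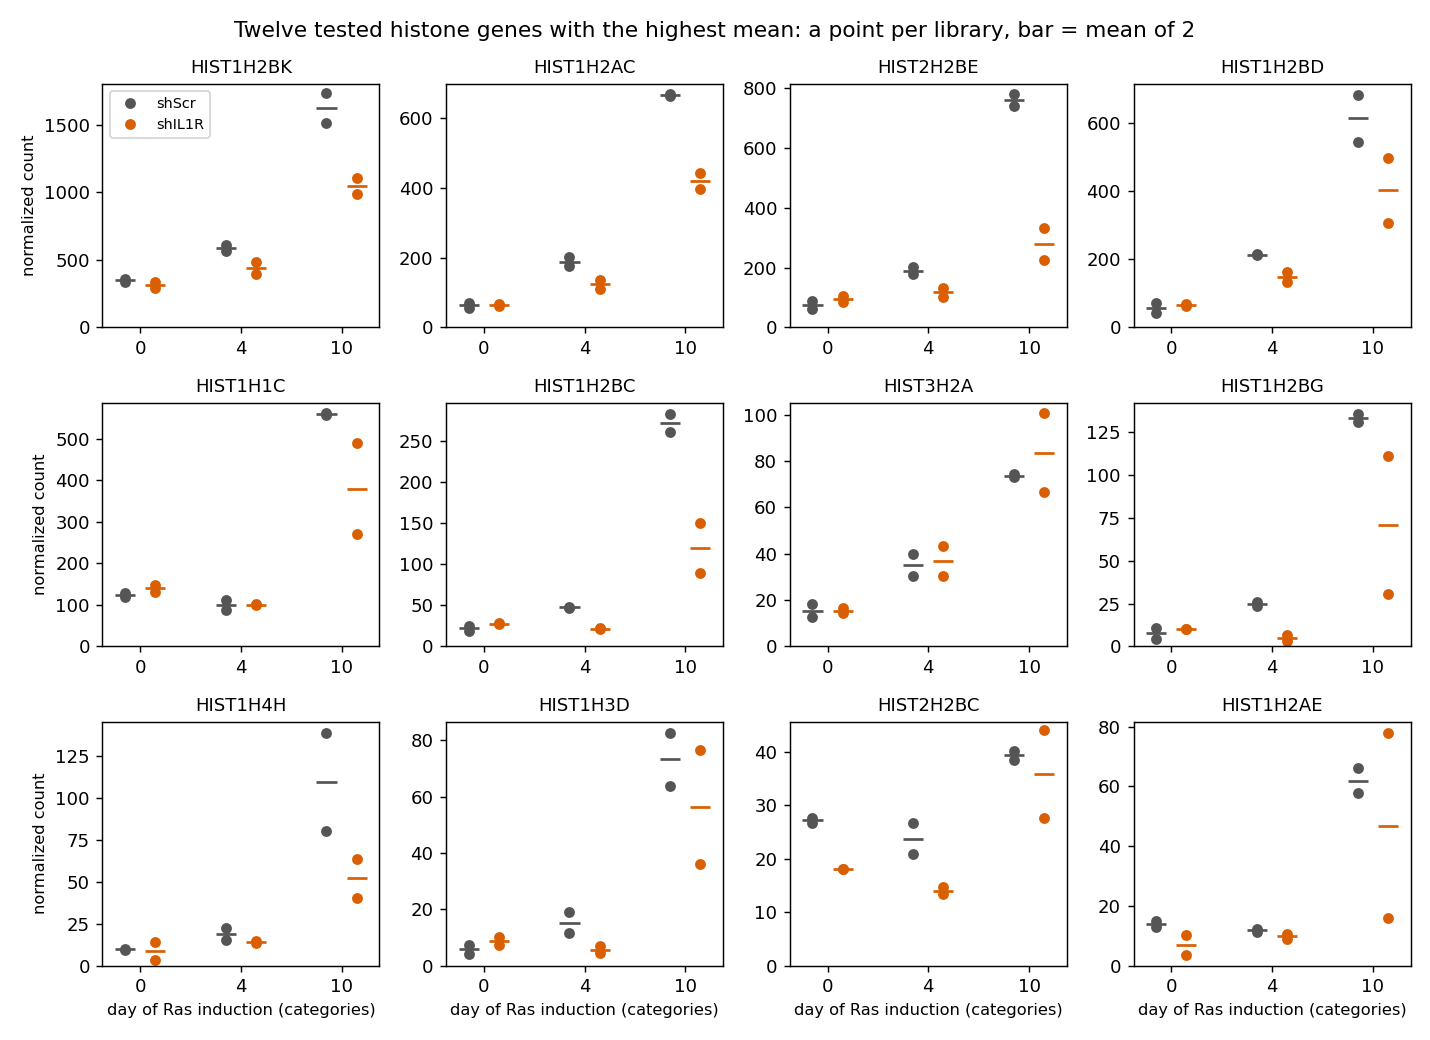
Normalized counts (vertical axes, from 0, a scale per gene) of the 12 tested histone genes with the highest mean, by day of Ras induction drawn as categories, with a point per library and a bar at the mean of 2. In each panel the shScr libraries of day 10 lie above those of day 0, as HIST2H2BE does at 741 and 780 against 87.3 and 60.1. HIST1H2BG is an example of wide spread between the shIL1R libraries of day 10, at 111.5 and 30.5.

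**Figure D3:**
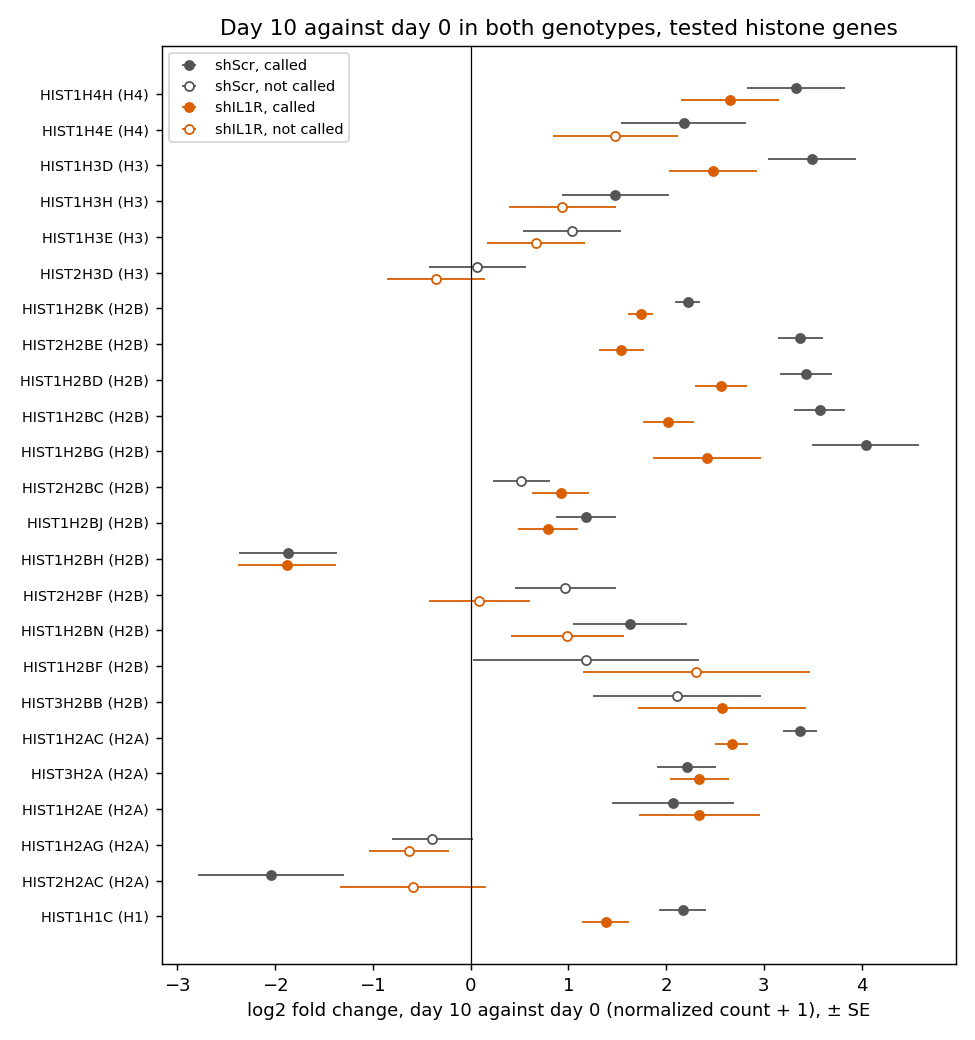
Log2 fold change of day 10 against day 0 (horizontal axis, ± SE) for the 24 tested histone genes in shScr and shIL1R, filled where the limma adjusted p was below 0.05. Changes reach from -2.04 for HIST2H2AC to 4.04 for HIST1H2BG in shScr, and HIST1H2BH lies at -1.87 and -1.88 in shScr and shIL1R.

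Fewer of these genes, as of all genes tested, were called over the first 4 days than over the whole course. In shScr at day 4 against day 0, 8 members rose and 1 fell, where 19.4% of all genes were higher and 18.9% lower, and the median change was 0.29. Those that rose were HIST1H2BD (1.92 ± 0.27), HIST1H2BG (1.66 ± 0.55), HIST1H2AC (1.55 ± 0.17), HIST2H2BE (1.37 ± 0.23), HIST1H3D (1.26 ± 0.45), HIST3H2A (1.15 ± 0.30), HIST1H2BC (1.08 ± 0.26) and HIST1H2BK (0.76 ± 0.13). HIST1H2BH fell by 1.43 ± 0.50. Without the first shScr day 0 library 5 of these 9 calls were made, with HIST1H2BC, HIST1H2BG, HIST1H2BH and HIST1H3D lost. HIST1H2BH and HIST1H3D were also not called there by DESeq2, nor HIST1H2BG and HIST1H3D by edgeR. The call of HIST3H2A was lost without the second day 0 library or without the second day 4 library, in which the tailless RNAs were high. In shIL1R 4 rose (16.7% of the 24) and 1 fell (4.17%) at day 4, beside a background of 20.1% higher and 20.3% lower. The median was -0.34. HIST3H2A (1.19 ± 0.30), HIST1H2BD (1.15 ± 0.27), HIST1H2AC (0.91 ± 0.17) and HIST1H2BK (0.49 ± 0.13) rose, and the calls of HIST3H2A and HIST1H2BK were lost without the first day 0 or the second day 4 library.

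From day 4 to day 10 no tested member fell. In shScr 12 rose, with 21.7% of all genes higher and 22.4% lower, and in shIL1R 16 rose, with 17.6% higher and 18.3% lower. The member medians were 1.48 and 1.41. Among members with at least 50 normalized counts, HIST1H1C (2.49 ± 0.24), HIST1H2BC (2.49 ± 0.26), HIST1H4H (2.44 ± 0.50) and HIST1H2BG (2.39 ± 0.55) changed most in shScr. In shIL1R these were HIST1H2BG (3.35 ± 0.55), HIST1H3D (3.04 ± 0.45) and HIST1H2BC (2.36 ± 0.26). Fitted on the shIL1R libraries of both days alone, 9 of the 16 calls were made, and 10 were made without the first shIL1R day 10 library.

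Receptor depletion was compared with the scramble hairpin on each day, and no tested member passed the test at day 0 or day 4. At day 0 no member had an unadjusted p below 0.05 by limma either, and the background was 0.0287% higher and 0.0359% lower. edgeR and DESeq2 on the recovered reads also called 0 members. The lowest adjusted p belonged to HIST2H2BC (-0.56 ± 0.29, 0.637) and HIST2H2AC (-1.40 ± 0.75, 0.653). At day 4 the limma background was 0.0431% higher and 0.237% lower, 9 members had an unadjusted p below 0.05 and the median difference was -0.58. HIST1H2BC differed by -1.09 ± 0.26 (adjusted p = 0.086) and HIST1H2BG by -2.14 ± 0.55 (adjusted p = 0.101). Both were called when either shIL1R day 10 library was left out of the shared estimate of the spread, DESeq2 called HIST1H2BG alone and edgeR called none.

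At day 10, 4 members were lower in shIL1R and none higher, where 4.37% of all genes were higher and 4.85% lower. They were HIST2H2BE (-1.47 ± 0.23, limma adjusted p = 0.00525), HIST1H2BC (-1.23 ± 0.26, 0.0173), HIST1H2AC (-0.67 ± 0.17, 0.0325) and HIST1H2BK (-0.63 ± 0.13, 0.016). The means in shIL1R were 0.368, 0.439, 0.628 and 0.644 times those in shScr. Both shIL1R libraries lay below both shScr libraries for each of these 4 genes, which adds nothing to the call that picked them. The median difference over the 24 was -0.63, and 20 had a lower fitted value in shIL1R. The median difference of all genes tested was 0. The count rested on single libraries. Without the second shScr day 10 library none of the 4 was called, and HIST2H2BE was at -1.43 with an adjusted p of 0.063. Without the second shIL1R day 10 library HIST2H2BE alone was called (-1.19, 0.0247), and without the first 10 members were called lower. That second library was below the first for most members, for example HIST1H1C at 269.8 against 490.4 and HIST1H2BG at 30.5 against 111.5, and it was also the library in which S phase genes such as CCNA2 (262 against 83.9) were higher. Some fibroblast markers were higher in it too, with COL1A1 at 159730.5 against 65668, COL1A2 at 98304.5 against 42626, COL3A1 at 22979.9 against 6312 and PDGFRA at 5117 against 2697. Others were lower in it, with VIM at 178033 against 192483 and THY1 at 4558 against 4743. The part of these differences in the histone values was not tested.

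**Figure D4:**
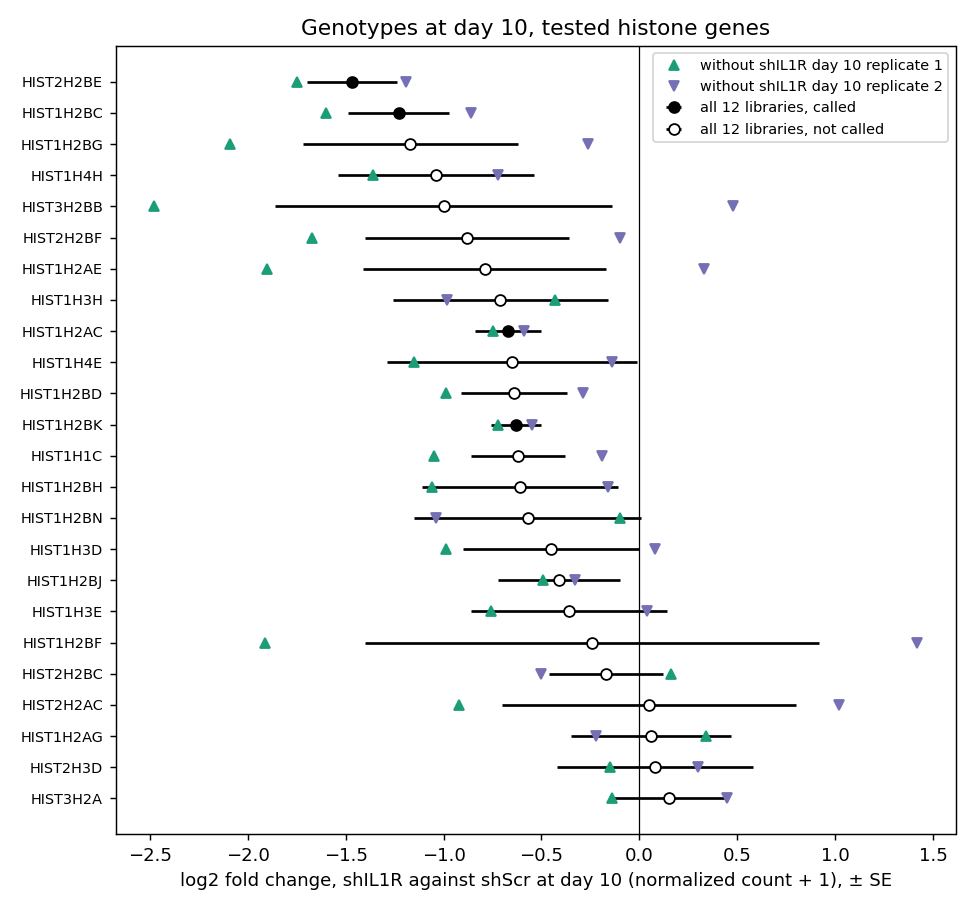
Log2 fold change of shIL1R against shScr at day 10 (horizontal axis, ± SE) for the 24 tested histone genes, filled where the limma adjusted p was below 0.05, with the value when the first (up triangle) or second (down triangle) shIL1R day 10 library is left out. HIST2H2BE moves from -1.47 to -1.75 and -1.19, while HIST1H2BG moves from -1.17 to -2.09 and -0.26.

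The change itself was compared between genotypes. From day 0 to day 4 no member passed, with 6 at an unadjusted p below 0.05 by limma and 0 called by edgeR or DESeq2, beside a background of 0% higher and 0.0287% lower. HIST1H2BC (-1.41 ± 0.36, adjusted p = 0.287) and HIST1H2BG (-2.59 ± 0.78, adjusted p = 0.316) had the lowest values. From day 0 to day 10 only HIST2H2BE passed, its rise being smaller in shIL1R by 1.84 ± 0.32 on the log2 scale (-1.84, limma adjusted p = 0.0179), where 0.876% of all genes were higher and 1.54% lower. HIST1H2BC missed the threshold (-1.54 ± 0.36, adjusted p = 0.053). The median over the 24 was -0.51. The HIST2H2BE call was lost without either shIL1R day 0 library, the second shScr day 0 library or the second shScr day 10 library (adjusted p = 0.0621, 0.0767, 0.0855 and 0.0945).

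The 35 members that were not tested had few reads. A member that rose strongly would have reached the minimum and been tested, so the lack of a rise in this set is fixed by its choice and is given as a description. Their summed level in shScr was 63.4 and 91.8 at day 0, 24.7 and 50.2 on day 4 and then 59 and 59.8 at day 10, and in shIL1R 65.6 and 68, 34.2 and 28.8, and 58.8 and 38.4. In both genotypes the day 4 libraries were below those of day 0. When limma was run with no filter, on 20762 genes, 2 of the 35 were higher and 6 lower in shScr at day 10 against day 0, with 23% of those genes higher and 21.2% lower. HIST1H3G went from 9.19 and 11.7 to 0 in both libraries, HIST1H1B, the linker histone H1.5, from 6.43 and 7.51 to 0 and 1.01, and HIST1H2AL from 5.51 and 5.01 to 0 in both. HIST1H2AM, HIST1H2BM and HIST1H4B were also lower, and HIST4H4 (1.84 and 0, then 8.26 and 4.05) and HIST1H4K (0 in both, then 2.36 and 2.03) were higher. Most of these values lie near or below the level of 3 reads, and all of the stretches of 50 bases in HIST1H4K are shared with other histone genes (100%). In shIL1R 2 were higher and 5 lower (20.3% and 20.4% of all genes), HIST1H3G among the lower at 6.29 and 4.3 and then 1.2 and 0.

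The annotated 3′ ends were set beside these values, with the grouping chosen after the values were known. A transcript that runs at least 100 bases past the stem-loop is annotated for 19 members, of which 15 were tested. Of these, 9 rose and 1 fell in shScr at day 10, and 8 rose and 1 fell in shIL1R. Among all 24 tested members, 62.5% rose and 8.33% fell in shScr, and 58.3% and 4.17% in shIL1R. Of all genes tested, 32.5% were higher and 31.3% lower in shScr, and 30% and 30.3% in shIL1R. The counts thus do not set this group apart from the other members. In 6 members the annotated transcript that holds the stem-loop ends within 100 bases of it. Of these 2 were tested, HIST1H2AE and HIST1H2BD, and both rose. Transcripts without the stem-loop did not enter this distance. HIST1H2BD has 2 annotated transcripts and its gene spans chr6:26158146-26171349, so it also has an annotated end further off. Another 34 have no stem-loop in an annotated transcript, and 25 of these have models under 600 bases, which are often the coding sequence alone, HIST1H2BK included. Among genes that rose, the length past the stem-loop was 1729 bases in HIST2H2BE, 1128 in HIST1H2AC, 1059 in HIST1H2BG and 116 in HIST1H2BC. In HIST1H2BH, which fell, it was 1640 bases. These lengths hold for annotated transcripts with the stem-loop, and their relation to the changes was not tested. Reads past the stem-loop were not measured, since the values are per gene.

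**Figure D5:**
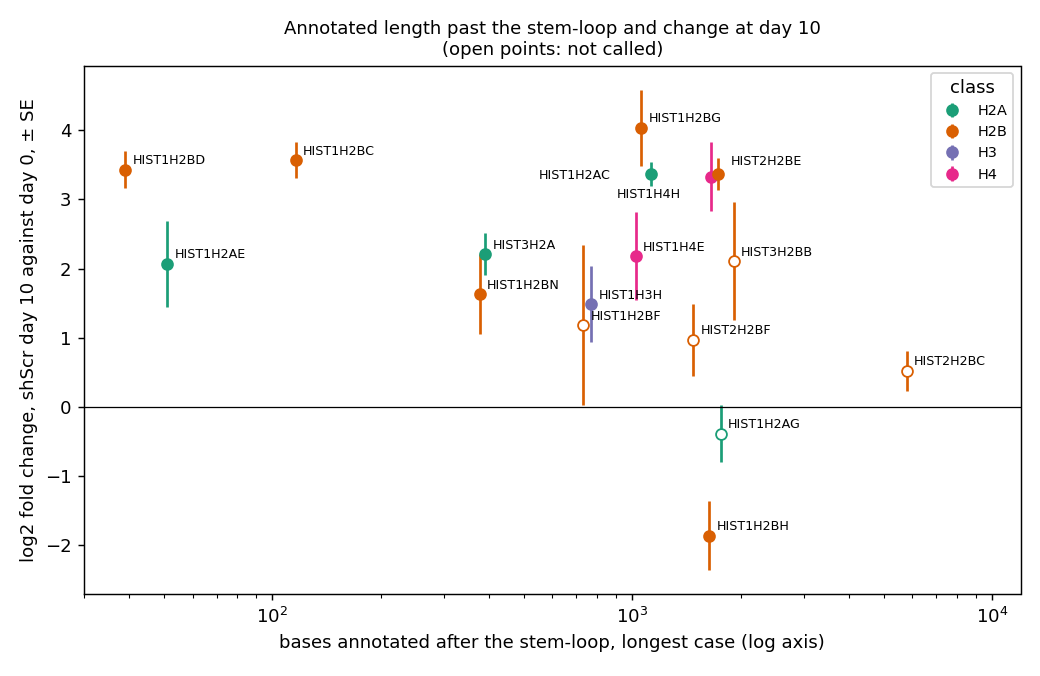
Bases annotated after the stem-loop in GENCODE v29 (horizontal axis, log scale) and log2 fold change of shScr day 10 against day 0 (vertical axis, ± SE) for the tested histone genes with an annotated stem-loop, coloured by class and open where not called. HIST2H2BE, with 1729 bases, is at 3.37 and HIST1H2BH, with 1640 bases, at -1.87.

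H2A and H2B genes often stand head to head and share the DNA between their starts. In the GENCODE annotation HIST1H2BC and HIST1H2AC start 219 bases apart, HIST1H2BG and HIST1H2AE 283 and HIST3H2A and HIST3H2BB 234. Both genes of the first 2 pairs rose in both genotypes at day 10, and both of the third in shIL1R. The calls of HIST1H2AE rested on single libraries. HIST3H2BB reached the minimum at day 10 alone, and in shIL1R it went from 0 in both libraries to 15.6 and 1.13. HIST2H2BE and HIST2H2AC start 323 bases apart, and in shScr the former was called higher and the latter lower. HIST2H2AC has few reads and reached the minimum at day 0 alone, and DESeq2 did not call it. The pair therefore does not show that such neighbours move apart. HIST1H2BJ rose in shScr, and HIST1H2AG, 292 bases away, did not pass the test in either genotype. In shIL1R limma also called HIST1H2BJ higher, but edgeR and DESeq2 did not. HIST1H2BK rose too, and its neighbour HIST1H2AH, 331 bases away, was not tested.

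The 250 bases upstream of the RefSeq start (GRCh38.p14) were found for 54 of the 59 members. Searched on both strands, the octamer ATTTGCAT, a site of OCT1, occurred in 42.6% of them and in 1.63% of 35116 promoters in the table. It was in 10 of 13 H2A and 12 of 16 H2B promoters, 1 of 10 H3 promoters and none of the 6 H1 or 9 H4 promoters. That H3 promoter, of HIST1H3D, is the same window as that of the H2A gene HIST1H2AD (chr6:26199294-26199543). The GENCODE gene HIST1H3D lies at chr6:26196840-26197250. Windows of head-to-head genes can also overlap, as for HIST1H2AC (chr6:26123922-26124171) and HIST1H2BC (chr6:26123927-26124176). Some DNA is therefore counted more than once. TATAAA was in 63% of the members' promoters against 10.7% of all, and CCAAT in 88.9% against 32%. The motifs are different strings, whose matches can share bases at their ends. Promoters are shown for 3 H2B genes, with all matches to the 3 motifs on either strand in capitals. HIST2H2BE rose and differed between genotypes, and HIST1H2BH fell. HIST1H2BC was called higher at day 4 in shScr and not in shIL1R, but the difference between those changes did not pass the test.
HIST2H2BE, chr1:149886683-149886932 (minus strand): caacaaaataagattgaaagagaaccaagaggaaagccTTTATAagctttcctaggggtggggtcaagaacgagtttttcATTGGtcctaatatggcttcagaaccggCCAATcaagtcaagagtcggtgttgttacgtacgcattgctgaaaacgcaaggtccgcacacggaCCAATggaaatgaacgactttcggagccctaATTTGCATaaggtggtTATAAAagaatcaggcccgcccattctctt
HIST1H2BC, chr6:26123927-26124176 (minus strand): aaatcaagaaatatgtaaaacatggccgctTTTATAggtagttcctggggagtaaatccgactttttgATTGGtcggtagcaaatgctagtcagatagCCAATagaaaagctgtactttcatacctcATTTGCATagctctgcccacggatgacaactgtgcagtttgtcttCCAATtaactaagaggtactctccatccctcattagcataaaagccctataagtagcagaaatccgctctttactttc
HIST1H2BH, chr6:26251364-26251613 (plus strand): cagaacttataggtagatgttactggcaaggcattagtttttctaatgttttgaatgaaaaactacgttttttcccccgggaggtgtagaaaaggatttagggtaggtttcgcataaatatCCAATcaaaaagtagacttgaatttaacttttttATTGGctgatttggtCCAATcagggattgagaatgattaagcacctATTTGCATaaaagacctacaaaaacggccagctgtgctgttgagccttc
All 3 hold the octamer, which begins 46 bases before the start in HIST2H2BE, 123 in HIST1H2BC and 49 in HIST1H2BH. A match is a string of letters and not a measured binding site.

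In each list of genes that work with these histones, more were called lower than higher at day 10 against day 0. Over all genes tested, 32.5% were higher and 31.3% lower in shScr, and 30% and 30.3% in shIL1R. Of 25 listed S phase genes all were tested and all 25 fell at day 10 against day 0 in each genotype, with median changes of -3.23 in shScr and -3.20 in shIL1R. Cyclin A2 (CCNA2) changed by -5.04 ± 0.36 and -4.51 ± 0.36, and the thymidine kinase TK1 by -5.03 ± 0.34 and -4.25 ± 0.34. The list on histone gene transcription and stem-loop processing held 26 tested genes, of which 5 rose and 14 fell in shScr and 6 rose and 13 fell in shIL1R. SLBP was at 1759 and 1782 at day 0, 1142 and 1166 on day 4 and then 1463 and 1392 at day 10 in shScr, and its day 10 change was -0.31 ± 0.08 there (limma adjusted p = 0.00455) and -0.33 ± 0.08 in shIL1R (adjusted p = 0.00335). NPAT, the coactivator of clustered histone genes, changed by -0.50 ± 0.09 and -0.73 ± 0.09, and CCNE2, a cyclin of the kinase that activates NPAT, by -3.94 ± 0.33 and -4.09 ± 0.33. HINFP, a transcription factor of H4 genes, rose by 1.22 ± 0.12 and 1.26 ± 0.12, and POU2F1, which encodes OCT1, by 0.90 ± 0.25 and 0.75 ± 0.25.

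Histone chaperones fell in 16 of 24 tested genes and rose in 3 in shScr and 5 in shIL1R. The shares over all genes were again 32.5% higher and 31.3% lower in shScr, and 30% and 30.3% in shIL1R. ASF1B, which hands H3 and H4 to assembly factors, was at 1136 and 1098 at day 0 and 30.7 and 38.5 at day 10 in shScr (-4.98 ± 0.42), and changed by -3.85 ± 0.42 in shIL1R. UBN1 (0.43 ± 0.07 and 0.48 ± 0.07) and UBN2 (1.03 ± 0.18 and 0.78 ± 0.18), of the complex that deposits H3.3 outside S phase, rose in both genotypes. Of 10 tested variant genes outside the clusters 8 fell and 1 rose in shScr, and 6 fell and 1 rose in shIL1R. H2AFZ went from 10664 and 11737 to 2686 and 2426 in shScr (-2.13 ± 0.10) and changed by -1.70 ± 0.10 in shIL1R. CENPA, the centromeric H3, changed by -5.15 ± 0.35 and -4.19 ± 0.35. The gene that rose was H2AFJ, which encodes H2A.J, from 638 and 645 to 1024 and 1137 in shScr (0.75 ± 0.10) and by 0.87 ± 0.10 in shIL1R.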

How the data were processed

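Values of 12 libraries in 6 groups were analysed. The authors deposited a signal, normalized counts per gene, made by dividing reads by library factors. TopHat, HTSeq, DESeq2 and hg19 are named in the submitters' processing notes, and versions, annotation and the strand setting of counting are not given in the sources used here. Dividing each value by the smallest above 0 of its library gave whole reads within 0.001 for 100% of values. limma (3.58.1, R 4.3.3) was fitted to log2(normalized count + 1) with 6 group means over all 12 libraries, an eBayes trend (residual degrees of freedom 6, prior 4.98), 11 contrasts and two-sided tests. Benjamini-Hochberg adjustment ran over the 13924 genes reaching 10 normalized counts in 2 or more libraries, called below 0.05. The libraries of each group differed by more than sampling noise (chi-square per degree of freedom 7.87 to 53.8).

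Alternatives were pseudocounts of 0.5 and 5, no filter, a mean filter, TMM rescaling, a replicate block, the compared groups alone, DESeq2 (1.42.0) and edgeR (4.0.16) run on the recovered reads, and leaving out each library, where a lone library is assumed to vary like the other groups. The text names up to 5 tested members per class by mean, called members of at least 50 normalized counts with the largest changes (up to 5 in each direction), called or lowest-p members of the genotype contrasts, and up to 4 genes of each related list. HIST1H2BN, HIST1H2BF, HIST2H2BF, HIST3H2BB and untested members lie partly outside that rule and were chosen after their values were seen. Members and lists were chosen with earlier results of these data known. Coordinates, stem-loops and promoters come from GRCh38 annotation (GENCODE v29, RefSeq) and were not placed on the hg19 values. All 59 members matched a GENCODE gene. Identical copies were sought only among symbols at 0 in all libraries or above 0 in 1 library. Those found (HIST2H2AA3 and HIST2H2AA4, HIST2H3A and HIST2H3C, HIST2H4A and HIST2H4B) were at 0 in all libraries. Members can share sequence too, as HIST1H4K does with 100% of its stretches of 50 bases.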

Additional observations from a re-analysis of the deposited data

Results flagged for a closer look

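HIST2H2BE was picked out because its rise from day 0 to day 10 differed between the genotypes by a test of the difference itself (limma, -1.84 on the log2 scale, adjusted p = 0.0179). Its levels went from 87.3 and 60.1 to 741 and 780 normalized counts in shScr and from 103 and 85.2 to 333 and 226 in shIL1R. The call was not made without either shIL1R day 0 library, the second shScr day 0 library or the second shScr day 10 library.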

How the results depend on the processing

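Counts of called members kept within 1.5 times of those reported except as follows. With no filter, shIL1R day 4 against day 0 gave 9 in place of 5. With the compared groups alone, shIL1R day 10 against day 4 gave 9 in place of 16, and the genotypes at day 10 gave 1 in place of 4. DESeq2 gave 1 in place of 0 for the genotypes at day 4, and DESeq2 and the pseudocount of 5 each gave 2 in place of 1 for the genotype difference in the day 10 change. The cause was not tested. Without the most abundant member, HIST1H2BK, the summed level was 5.83 times that of day 0 in shScr at day 10 and 1.09 times in shIL1R at day 4.

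Leaving out 1 library gave 5 to 9 calls (shScr day 4 against 0), 12 to 18 (day 10 against 0) and 9 to 15 (day 10 against 4). In shIL1R it gave 3 to 6, 11 to 15 and 10 to 18. Between genotypes it gave 0 at day 0, 0 to 2 at day 4 and 0 to 10 at day 10, and 0 and 0 to 5 for the differences in the changes to day 4 and day 10. Summed folds over day 0 ranged over 1.54 to 1.74 and 5.31 to 5.51 in shScr, and 1.14 to 1.26 and 2.82 to 3.94 in shIL1R.

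Fitted changes that turned sign when a library was left out all belonged to genes of few reads. Over the libraries left out, HIST2H2AC ranged from -1.38 to 0.62 in shScr day 10 against 4, from -1.56 to 0.38 in shIL1R day 10 against 0 and from -0.91 to 1.03 in shIL1R day 10 against 4 (-0.38 without the first day 4 library). In shIL1R day 4 against 0, HIST1H2AE ranged from -0.07 to 1.23, HIST1H3H from -1.35 to 0.4 and HIST1H3E from -1.38 to 0.1. In shScr, HIST2H3D ranged from -0.37 to 0.52 for day 10 against 0 (-0.21 without the first day 10 library) and HIST1H4E from -0.35 to 1.44 for day 4 against 0.

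Libraries of a group share only a number. Deviations of same-numbered libraries correlated at -0.1 to 0.23, so pairing was not established. With the replicate number as a block the counts were 9, 18 and 12 in shScr, 5, 14 (HIST1H2BJ lost) and 15 (HIST1H2AE lost) in shIL1R, and 0, 0 and 4 between genotypes, with 0 and 1 for the differences in change. TMM rescaling moved the median of all genes by -0.02 to 0.01. Depth limits the 35 untested members, most of which lie near 3 reads.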
